A study of Homo sapiens with 15 samples.

Results

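SPARK-OFF cells and no-mCherry control cells, both treated with rapamycin for 5 h, were compared across all expressed genes by RNA-seq, using 6 of the 15 libraries of the study. The members were the libraries whose labels give these lines and this drug, 3 per line, and 18391 genes passed the filter on low counts. All 6 came from HEK293T cells (HEK293 in the study's text), an embryonic kidney line, engineered to express YAP-MAML2. SPARK-OFF cells carried FKBP-mEGFP-YAP-MAML2 together with NLS-mCherry-Frb, and the study describes the fusion as diffuse in them after rapamycin. The control line lacked mCherry, and the study describes the fusion as still condensed there under the same drug. The same lines treated for 5 h with DMSO (3 libraries each) and mock-treated cells expressing eGFP (3 libraries) served for reference. For the control line with DMSO, the title and treatment labels name DMSO but the description names rapamycin, and the former were followed. The sources used here give neither the promoter of the transgene nor whether a line is a single clone, so condensate state, mCherry and any other difference between the lines cannot be told apart. Nothing states that replicates were separate cultures, and p-values then measure the spread between these libraries only.

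YAP is a transcriptional coactivator that the Hippo kinases keep out of the nucleus, and it acts through TEAD factors on genes such as ANKRD1, CCN1 and CCN2. MAML2 is a coactivator of Notch receptors, and the tumour fusion YAP-MAML2 joins the TEAD-binding part of YAP to the activation part of MAML2. Rapamycin brings FKBP and Frb together, which is how SPARK-OFF works, and it also inhibits mTORC1, a kinase complex that promotes ribosome production and protein synthesis.

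The 6 libraries held 16526624 to 24797509 counts. Levels are given as CPM, which are counts scaled to the size of the library with TMM factors, as mean ± SD of 3 libraries, and are compared between groups for a gene, not between genes. The share of counts from the mitochondrial genome was 2.86% to 3.16% in SPARK-OFF cells and 3.80% to 3.93% in control cells. Among the libraries of the 2 lines, control replicate 1 with rapamycin and control replicate 3 with DMSO leaned most with the GC content of genes. Across genes, r between GC and the deviation of a library from the mean of all 15 was 0.175 and -0.373. In eGFP cells it was 0.133 to 0.226, and this measure also holds differences between groups. All 10 genes listed as known to be expressed in HEK293 cells, such as VIM and KRT18, passed the filter, and at an adjusted p under 0.05 in edgeR 2 were higher and 5 lower in SPARK-OFF cells. Of 34 markers of neuronal, muscle, blood, endothelial and liver cells, 18 passed the filter, with a summed level of 69.9 to 80.4 CPM in SPARK-OFF and 63.5 to 72.5 CPM in control cells.

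The fusion genes were read first. MAML2 (hg38, chromosome 11, 95976598 to 96343195) was at 553, 563 and 504 CPM in SPARK-OFF cells and at 261, 230 and 238 CPM in control cells, against 3.63 CPM in eGFP cells. The lines did not overlap, and MAML2 was 2.22-fold higher in SPARK-OFF cells (log2 fold change 1.15, SE 0.10, edgeR adjusted p = 8.53e-08). YAP1 stood at 276, 280 and 245 CPM in SPARK-OFF cells and at 171, 124 and 150 CPM in control cells, with 52.8 CPM in eGFP cells. Its log2 fold change was 0.85 (SE 0.11, edgeR adjusted p = 1.29e-05), and reads from the endogenous gene and the fusion are counted together. So the line with diffuse fusion held more RNA counted to both partner genes than the line with condensed fusion, also under DMSO (log2 fold changes 0.91 for MAML2 and 0.63 for YAP1). The part of this difference in fusion RNA in the results that follow was not tested. The genes behind both dimerizing domains, FKBP1A (215 ± 1.37 CPM in SPARK-OFF and 220 ± 9.42 CPM in control cells) and MTOR, which contains the Frb domain (118 ± 15.8 and 124 ± 14.4 CPM), gave edgeR adjusted p-values of 0.818 and 0.798.

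The best known readouts of the fusion did not behave alike. CCN1, a secreted matricellular protein, was at 902, 891 and 872 CPM in SPARK-OFF cells and at 481, 479 and 460 CPM in control cells (log2 fold change 0.91, SE 0.08, edgeR adjusted p = 5.98e-08). CCN2, its close relative, was at 911, 898 and 899 CPM against 542, 545 and 535 CPM (log2 fold change 0.74, SE 0.09, edgeR adjusted p = 4.4e-06). THBS1, an adhesive matrix glycoprotein, was at 36.2, 32.6 and 31.3 CPM against 18.3, 15.9 and 19.5 CPM (log2 fold change 0.90, SE 0.12, edgeR adjusted p = 2.83e-05). For these 3 genes every SPARK-OFF library lay above every control library. Libraries of the 2 lines did not overlap, in either direction, for 35.8% of all genes tested and for 1016 of the 1027 genes called below. ANKRD1, a nuclear ankyrin repeat protein, was at 669, 768 and 784 CPM in SPARK-OFF cells and at 646, 772 and 742 CPM in control cells. Its libraries overlapped, and the log2 fold change was 0.04 (SE 0.11, edgeR adjusted p = 0.867). IGFBP3, an IGF-binding protein, was low, at 3.34 ± 0.863 and 2.98 ± 0.614 CPM, with a log2 fold change of 0.16 (SE 0.33, edgeR adjusted p = 0.813).

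**Figure D1:**
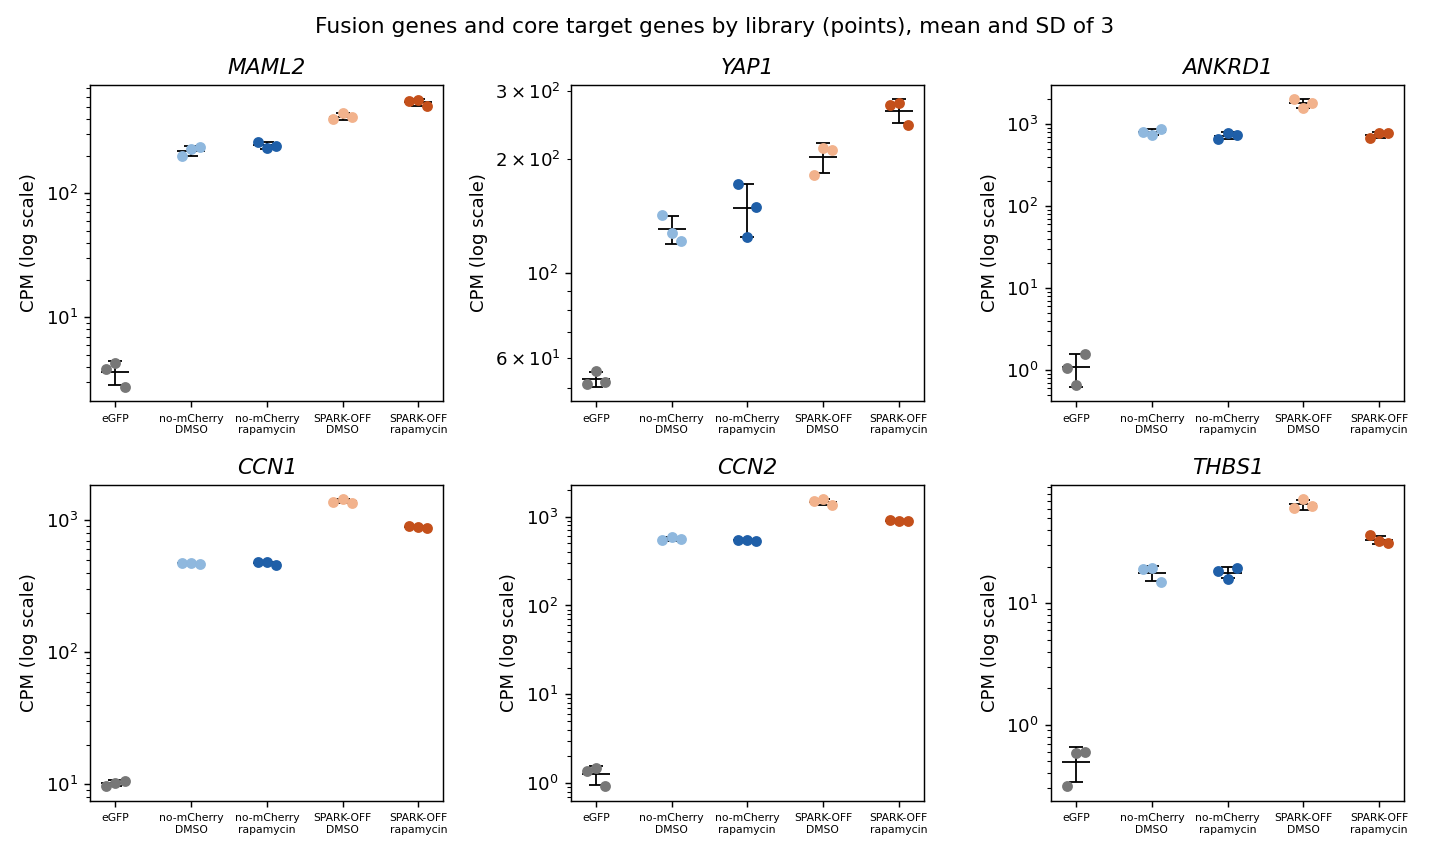
CPM on log axes of MAML2, YAP1, ANKRD1, CCN1, CCN2 and THBS1 in the 5 groups, with 1 point per library and the mean and SD of 3 libraries. Under rapamycin the 2 lines separate for MAML2, YAP1, CCN1, CCN2 and THBS1 and overlap for ANKRD1, at 740 ± 62.2 and 720 ± 65.8 CPM.

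The upstream sequences of 3 of these genes are shown because they are among the best known readouts of the fusion. CCN1 had no entry in the reference table of promoters. All 3 hold letters that TEAD factors bind. Under rapamycin CCN2 and THBS1 were higher in SPARK-OFF cells, whereas ANKRD1 did not pass. They are the 250 bases before the start in RefSeq on GRCh38.p14, 5′ to 3′ on the strand of the gene: ANKRD1 at chr10:90921088-90921337 (minus), CCN2 at chr6:131951373-131951622 (minus) and THBS1 at chr15:39580829-39581078 (plus). Capitals mark GGAATG, searched on both strands with its reverse complement CATTCC.
ANKRD1: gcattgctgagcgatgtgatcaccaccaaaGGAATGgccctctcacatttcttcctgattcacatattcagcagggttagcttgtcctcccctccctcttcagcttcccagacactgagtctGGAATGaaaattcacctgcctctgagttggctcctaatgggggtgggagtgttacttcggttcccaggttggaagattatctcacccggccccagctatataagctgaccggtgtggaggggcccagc
CCN2: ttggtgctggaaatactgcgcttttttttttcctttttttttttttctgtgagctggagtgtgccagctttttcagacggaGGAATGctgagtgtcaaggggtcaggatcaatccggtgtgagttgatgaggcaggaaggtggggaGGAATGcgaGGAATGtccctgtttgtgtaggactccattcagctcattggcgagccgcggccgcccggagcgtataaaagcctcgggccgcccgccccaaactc
THBS1: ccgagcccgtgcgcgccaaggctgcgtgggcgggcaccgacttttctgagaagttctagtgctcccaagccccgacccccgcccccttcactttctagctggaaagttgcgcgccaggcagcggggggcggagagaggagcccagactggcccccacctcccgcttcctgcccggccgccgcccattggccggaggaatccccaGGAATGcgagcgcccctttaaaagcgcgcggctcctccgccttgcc
ANKRD1 held 2 matches, CCN2 held 3 and THBS1 held 1. The AP-1 letters TGACTCA, or TGAGTCA on the other strand, matched in none of the 3. Over 250 bases before to 50 bases after the start, GGAATG occurred in 10.9% of the promoters of tested genes, in 14.5% of 297 promoters of genes higher in SPARK-OFF cells and in 11.3% of 373 promoters of genes lower there, against 14% of all promoters in the reference table. For TGACTCA these shares were 3.0%, 4.38%, 2.95% and 4.92%. A match is a description of the letters only, and the 2 motifs do not overlap each other.

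Across all genes, 446 were higher (2.43% of those tested) and 581 were lower (3.16%) in SPARK-OFF than in control cells under rapamycin, called as DEGs where P was under 0.01, FDR under 0.1 and the size of the log2 fold change 0.58 or more. The median over all genes tested was -0.0016 on the log2 scale. Of the calls, 363 of those higher and 454 of those lower were protein-coding, and 330 of the 1027 changed by at least 1 on the log2 scale. The share of lower genes went with GC content: with protein-coding genes split by GC into 10 groups of equal size, the median log2 fold change was -0.14 in the group above 61.9% GC and 8.75% were called lower, against 0.996% to 5.48% in the other 9 groups. With the GC trend removed, 486 genes were higher and 484 were lower.

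Among called protein-coding genes at 5 CPM or more in the higher group with libraries that did not overlap, NPPB led the increases by fold change. TNFRSF12A and EDN1 were among the next. KRT6A, below that level at 0.728 CPM in SPARK-OFF and 0.072 CPM in control cells, was 9.2-fold higher (log2 fold change 3.20, SE 0.96, edgeR adjusted p = 0.0109). A ratio at such low levels is uncertain. NPPB, the precursor of B-type natriuretic peptide, was at 18.4, 22.2 and 19.8 CPM in SPARK-OFF cells and at 3.33, 3.95 and 3.83 CPM in control cells, 5.42-fold higher (log2 fold change 2.44, SE 0.16, edgeR adjusted p = 9.29e-10). TNFRSF12A, the receptor for TWEAK, was at 62.2, 62.8 and 63.1 CPM against 16.6, 16 and 14.6 CPM, 3.98-fold higher (log2 fold change 1.99, SE 0.12, edgeR adjusted p = 9.29e-10). Each of the 3 SPARK-OFF libraries was far above the controls for both genes. EDN1, which encodes endothelin-1, was 4.17-fold higher, COL12A1, a collagen chain, 3.94-fold, and DUSP4, a phosphatase that switches off MAP kinases, 3.54-fold. The log2 fold changes of the other 7 named by the same rule were 1.73 for L1CAM, 1.70 for TTR, 1.62 for BST2, 1.61 for TUFT1, 1.60 for COL5A3, and 1.58 for both CD36 and IGFL2. All 12 genes of this rule were also called higher between the lines under DMSO. There the log2 fold change was larger for some (NPPB 2.89, EDN1 2.61) and smaller for others (TNFRSF12A 0.70, DUSP4 0.68).

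Among the genes lowest in SPARK-OFF relative to control cells, KRTAP19-1, a hair keratin-associated protein gene, was at 7.09, 8.10 and 8.12 CPM in SPARK-OFF cells and at 43.7, 52.0 and 43.7 CPM in control cells, 5.96-fold lower (log2 fold change -2.57, SE 0.15, edgeR adjusted p = 2.52e-10). Its mean was 46.4 CPM in control cells and 43.0 CPM in eGFP cells. MAF, a bZIP transcription factor, was at 24.1, 29.7 and 23.8 CPM against 73.0, 68.6 and 78.3 CPM, 2.84-fold lower (log2 fold change -1.50, SE 0.14, edgeR adjusted p = 1.88e-07). The 3 libraries of each line were apart for both. FZD10, a Wnt receptor, was 3.27-fold lower, KANK3, a cytoskeletal adaptor, 2.89-fold, and GDF15, a stress-induced cytokine, 2.38-fold. BLOC1S1 (log2 fold change -1.81) shares exons with a readthrough transcript, so its counts are uncertain, and the other 6 of the 12 were ATP8B3, FAT3, HBQ1, ATP5ME, GRIP2 and PLA2G6, between -1.53 and -1.25. Between the lines under DMSO, all of the 12 but GDF15 (log2 fold change -0.37) were also called lower, with KRTAP19-1 at -2.10 and MAF at -1.18.

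**Figure D2:**
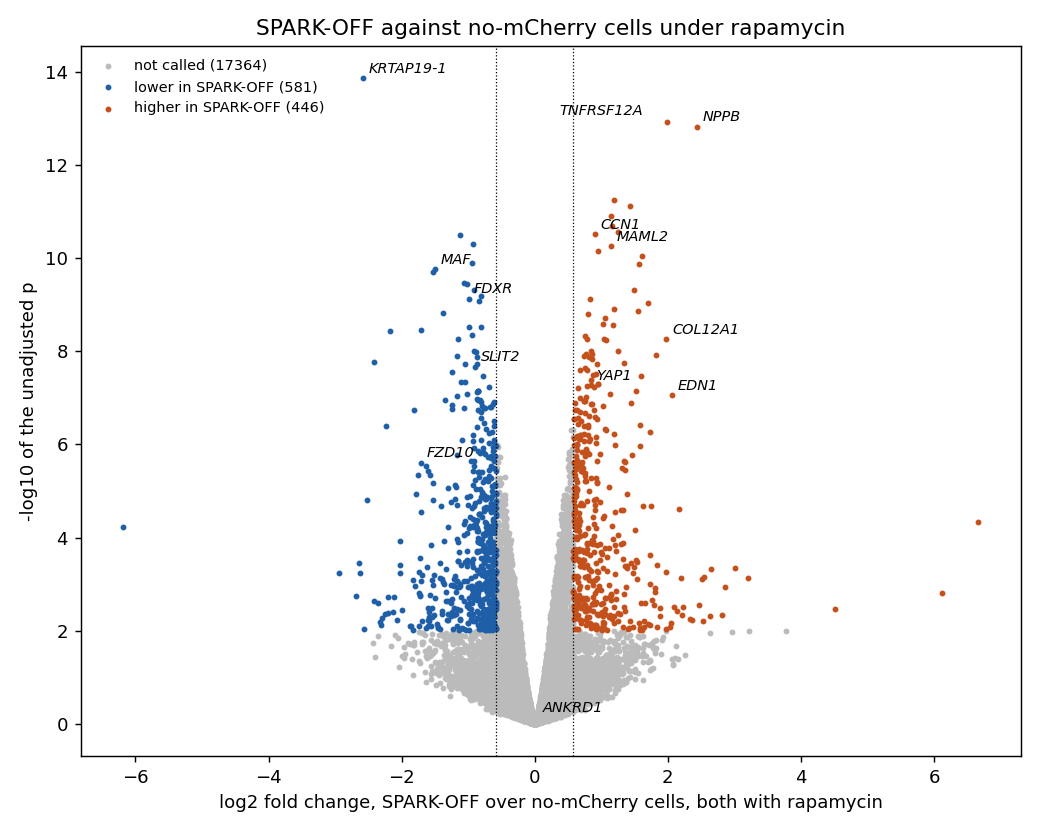
Log2 fold change of each of 18391 genes (SPARK-OFF over no-mCherry cells, both with rapamycin) against -log10 of the unadjusted p, with calls in colour and dotted lines at an absolute value of 0.58. The 446 genes called higher and 581 called lower spread to both sides, KRTAP19-1, TNFRSF12A and NPPB lie at the top, and ANKRD1 sits near 0.

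Gene lists were then described by the members at an edgeR adjusted p under 0.05, to be read against 7.07% of all genes tested that were higher and 6.88% that were lower by the same rule. Of 22 core YAP and TAZ targets, 11 were higher and 3 were lower, with a median log2 fold change of 0.48. Beside CCN1 and CCN2, the higher ones included GADD45B (log2 fold change 1.25), a stress sensor, MYOF (1.16), a membrane repair protein, and the feedback regulators AMOTL2 (0.77) and LATS2 (0.74). The lower ones were NT5E (-1.15, at 1.29 CPM in SPARK-OFF cells), ARHGEF17 (-0.55) and FOXF2 (-0.36). This count of 3 was 1 without SPARK-OFF replicate 2, 3 without SPARK-OFF replicate 3 and 2 without any 1 of the other 4 libraries. Of 25 Hippo pathway, TEAD and VGLL genes, 8 were higher, led by TEAD1 (1.05), WWC2 (1.04) and TEAD4 (0.91), and 3 were lower, DCHS1 (-0.66), AMOT (-0.60) and TEAD2 (-0.46). The 8 became 5 without control replicate 2. The 3 became 2 without control replicate 2 and 1 without any 1 of the other 5 libraries, and DCHS1 did not pass in those 5 fits (edgeR adjusted p from 0.00149 to 0.214 over the alternatives). In the Notch list 4 of 21 were lower, HES4 (-0.94), NOTCH3 (-0.61), HEY1 (-0.51) and NRARP (-0.47), and 1, the ligand JAG1, was higher (0.57). NOTCH3 did not pass without SPARK-OFF replicate 2 or 3 or control replicate 1 (edgeR adjusted p up to 0.0654). HES4 and HEY1 are transcriptional repressors downstream of Notch.

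Genes of the p53 response were lower in SPARK-OFF cells. Of 26 p53 targets, 18 were lower and 1 was higher, and the median was -0.52. CDKN1A, the cyclin-dependent kinase inhibitor p21, was at 56.7, 57.6 and 53.8 CPM in SPARK-OFF cells and at 109, 106 and 108 CPM in control cells (log2 fold change -0.94, SE 0.08, edgeR adjusted p = 1.52e-07). FDXR, a mitochondrial reductase, was at 46.9, 43.3 and 49.8 CPM against 90.2, 101 and 87.6 CPM (-0.99, SE 0.10, edgeR adjusted p = 5.53e-07). The lines were apart for both. DDB2 (-0.92), a DNA repair factor, and MDM2 (-0.63), the ubiquitin ligase of p53, followed, and PLK2 (0.90) was the member that was higher. HEK293T cells carry SV40 large T antigen, which binds p53.

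HOX genes, which set position along the body axis, were also lower: 19 of 36 were lower and 17 did not pass, with a median of -0.43. With any 1 of the 6 libraries left out, 13 to 15 were lower. HOXA10 was at 63.9, 61.6 and 61.2 CPM in SPARK-OFF cells and at 97.1, 97.4 and 99.7 CPM in control cells (log2 fold change -0.66, SE 0.10, edgeR adjusted p = 0.000173). HOXC4 (-0.84), HOXB2 (-0.80) and HOXA13 (-0.74) belong to different clusters of the family, and the summed level of the list was 1030 to 1080 CPM in SPARK-OFF and 1370 to 1480 CPM in control cells. Guidance genes were lower in part, with 6 of 29 semaphorins, plexins and neuropilins and 6 of 34 ephrins, Slit-Robo and netrins, while 1 member of each list was higher, SEMA3B (0.58) and EPHA2 (0.74). SEMA3B did not pass without SPARK-OFF replicate 1 or 2 or control replicate 2 or 3 (edgeR adjusted p up to 0.0908). The secreted guidance cue SLIT2 was at 348, 329 and 331 CPM against 648, 582 and 643 CPM (log2 fold change -0.89, SE 0.11, edgeR adjusted p = 6.25e-06).

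Ribosome biogenesis genes were higher and ribosomal protein genes were lower. Of 44 biogenesis genes, 30 were higher and 14 did not pass, with a median log2 fold change of 0.48. NOP16, a nucleolar assembly factor, was at 38.3, 36.9 and 40.1 CPM in SPARK-OFF cells and at 17.5, 20.5 and 17 CPM in control cells (log2 fold change 1.07, SE 0.12, edgeR adjusted p = 2.36e-06). NCL, the nucleolar protein nucleolin, was at 1155, 1110 and 1103 CPM against 739, 809 and 772 CPM (0.54, SE 0.08, edgeR adjusted p = 0.000139). Every SPARK-OFF library exceeded every control library for both. Of 76 cytosolic ribosomal protein genes, 46 were lower and 30 did not pass, with a median of -0.39. RPL10 was at 1127, 1172 and 1239 CPM against 1707, 2060 and 1928 CPM (-0.69, SE 0.10, edgeR adjusted p = 6.86e-05). The count of 46 depended on single libraries: it was 22 without SPARK-OFF replicate 1, 23 without SPARK-OFF replicate 2, 19 without control replicate 2 and 29 without control replicate 3. Ribosomal protein genes, KRT8, HSPA8, histone and mitochondrial genes have near-identical copies in the genome, and how the counting split their reads is uncertain.

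Chaperone and amino acid genes were higher as well. Of 35 heat shock and chaperone genes, 21 were higher and 14 did not pass (median 0.36), with 13 higher without control replicate 1. HSPH1, a large heat shock protein, was at 266, 256 and 259 CPM in SPARK-OFF cells and at 128, 136 and 141 CPM in control cells (log2 fold change 0.95, SE 0.08, edgeR adjusted p = 1.0e-07). BAG3 (0.80), a co-chaperone, and HSPA5 (0.75), the chaperone of the endoplasmic reticulum, were apart in the same way. Of 41 ATF4 and amino acid response genes, 14 were higher and 2 were lower. SLC7A5, the large neutral amino acid transporter, was at 172, 157 and 160 CPM against 71.7, 66.8 and 76.2 CPM (1.19, SE 0.12, edgeR adjusted p = 7.99e-07). The heavy-chain partner of SLC7A5, SLC3A2, was higher at 0.60, and STC2 was higher at 1.05. Of 32 sterol and fatty acid synthesis genes, 8 were higher, among them SQLE (0.64) and HMGCS1 (0.55), and this count was 4 without SPARK-OFF replicate 1 or control replicate 2, and 5 without SPARK-OFF replicate 2 or control replicate 3.

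Signalling and cytoskeletal genes made up another group. Of 24 immediate early factors and AP-1 subunits, 10 were higher and 3 were lower (2 lower without SPARK-OFF replicate 2 or control replicate 3, and 1 without any 1 of the other 4 libraries). The higher ones were led by FOSL2 at 35.6, 31.6 and 27.5 CPM in SPARK-OFF cells and at 12.7, 9.72 and 11.2 CPM in control cells (log2 fold change 1.49, SE 0.14, edgeR adjusted p = 4.13e-07). JUN, the most common partner of FOS proteins, was at 239 ± 5.00 and 245 ± 2.94 CPM (edgeR adjusted p = 0.904). Of 20 MAP kinase phosphatases and feedback inhibitors, 7 were higher and 13 did not pass. The higher ones included DUSP5 (1.19) and DUSP1 (0.71). Of 26 SRF and MRTF targets, which include actin and its binding proteins, 12 were higher and 1 was lower. With 1 library left out, 8 to 10 were higher and 0 to 1 lower. The higher ones included CAVIN1 (1.19), TPM1 (0.84) and CAV1 (0.79). Of 21 intermediate filament genes 7 were higher (4 without SPARK-OFF replicate 1) and 3 were lower. Keratins of simple epithelia were higher, KRT8 at 0.87 and KRT18 at 0.48 (edgeR adjusted p = 0.0525 without SPARK-OFF replicate 1), while the mesenchymal filament gene VIM (-0.50) and the neurofilament genes NEFM (-0.79) and NEFL (-0.52) were lower.

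Interferon-stimulated genes and histone genes were higher where they passed. Of 28 interferon-stimulated genes 7 were higher and 21 did not pass (median 0.49), and IFI6 was at 47.7, 48.9 and 48.1 CPM in SPARK-OFF cells and at 17.9, 18.9 and 17.1 CPM in control cells (log2 fold change 1.42, SE 0.11, edgeR adjusted p = 2.8e-08). In the list of histones made in S phase, 9 of 31 were higher and 22 did not pass (median 0.66, with 5 higher without control replicate 3), such as H2BC12 (0.93) and H1-2 (0.81). Of 13 mitochondrially encoded mRNAs 7 were lower, with MT-CO3 at -0.84 and MT-CO2 at -0.68, as was the mitochondrial share of all counts given above. In bulk RNA, fewer cells expressing a gene and less RNA per cell cannot be told apart.

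**Figure D3:**
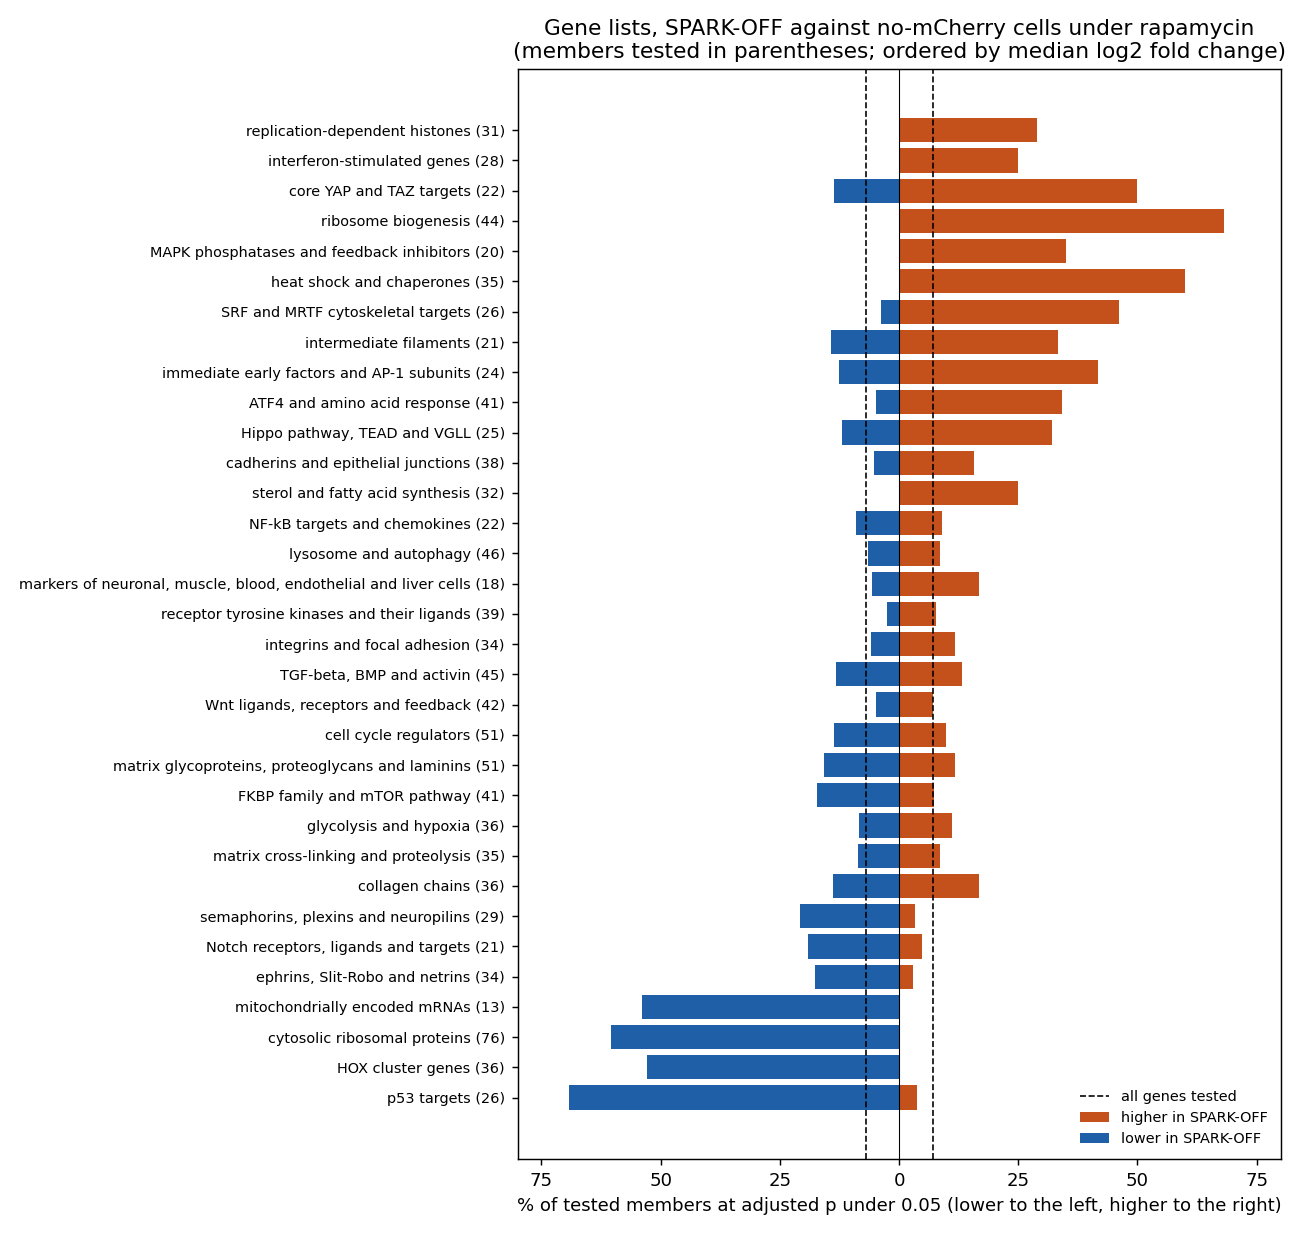
Percent of tested members of 33 gene lists at an edgeR adjusted p under 0.05 in SPARK-OFF against no-mCherry cells under rapamycin, higher to the right and lower to the left, with dashed lines at the 7.07% and 6.88% of all genes tested. Ribosome biogenesis (30 of 44 higher), heat shock and chaperones (21 of 35 higher), p53 targets (18 of 26 lower) and ribosomal proteins (46 of 76 lower) reach farthest.

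The other lists were closer to the background or went in both directions. Some still exceeded it, such as FKBP family and mTOR pathway genes (7.32% higher, 17.1% lower) and collagen chains (16.7% higher, 13.9% lower). Of 51 cell cycle regulators 5 were higher and 7 were lower, of 42 Wnt genes 3 and 2, of 39 receptor tyrosine kinases and ligands 3 and 1, of 46 lysosome and autophagy genes 4 and 3, of 36 glycolysis and hypoxia genes 4 and 3, and of 22 NF-kB targets and chemokines 2 and 2. Matrix genes went in both directions, with 6 of 36 collagen chains higher and 5 lower, 6 and 8 of 51 glycoproteins, proteoglycans and laminins, and 3 and 3 of 35 cross-linking and proteolysis genes. COL12A1 (1.98), COL5A3 (1.60) and SPARC (1.02) were higher, whereas HSPG2 (-0.86) and COL6A2 (-0.65) were lower. In the remaining lists, 6 of 45 TGF-beta, BMP and activin genes were higher and 6 were lower, with ID2 at -0.85, of 34 integrins and focal adhesion genes 4 and 2, with ITGA8 at -1.11, of 38 cadherin and junction genes 6 and 2, of 41 FKBP family and mTOR pathway genes 3 and 7, and of 18 tested markers of other cell types 3 and 1, the 3 being TTR, MYH2 and CD14 (edgeR adjusted p = 0.0634 for CD14 without control replicate 3). Such small counts moved with single libraries: over the 6 fits that each left out 1 library, 3 to 4 cell cycle regulators were higher and 2 to 6 lower, 2 to 5 TGF-beta, BMP and activin genes were lower, 2 to 4 collagen chains were lower, 2 to 4 matrix glycoproteins were higher and 4 to 8 lower, and 3 to 5 semaphorins, plexins and neuropilins were lower.

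To see how much of this was present without the drug, the same lines were compared under DMSO, with the fusion described as condensed in both and with no library in common. Under DMSO 490 genes were higher (2.66% of those tested) and 340 were lower (1.85%) in SPARK-OFF cells. Of the genes called higher under rapamycin 185 were also called higher under DMSO, which is 41.5% of the former and 37.8% of the latter. Of the genes called lower, 143 were shared, 24.6% of the former and 42.1% of the latter, and 1 of the genes lower under rapamycin was called higher under DMSO. Of the 446 genes higher under rapamycin 417 had a positive log2 fold change under DMSO, and of the 581 lower genes 532 had a negative one. The median log2 fold change of the 446 was 0.858 under rapamycin and 0.577 under DMSO. For the 581 it was -0.813 and -0.457. Without control replicate 3 with DMSO, this contrast gave 385 higher and 441 lower.

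The difference between the contrasts was then tested directly. A positive value means that SPARK-OFF cells stood higher relative to control cells under rapamycin than under DMSO. This difference was called for 13 genes in the positive direction (0.0707% of those tested) and for 22 in the negative (0.12%), of which 62.9% were negative. This split was 49.2% with the GC trend removed (31 positive and 30 negative) and 41.3% without control replicate 3 with DMSO (54 and 38). Leaving out any of the 12 libraries moved the positive count by more than 1.5 times, to between 1 (without SPARK-OFF replicate 3 with rapamycin, where 7 were negative) and 54. Among 18 called genes that were followed across all alternative settings, 6 stayed past the FDR threshold in each: ANKRD1, CCN1, KRT4, PBXIP1, TNFRSF12A and YPEL3. The highest edgeR adjusted p over the settings was 0.118 for CCN2, 0.107 for THBS1, 0.128 for HSPA8, 0.118 for NOP16, 0.129 for POLR1G and 0.2 for SLC7A5, each in a fit without 1 library. Of the 446 genes called higher under rapamycin, the difference was called positive for 11 and negative for 8. Of the 581 called lower, it was called negative for 5 and positive for 0.

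Of 22 core YAP and TAZ targets, 3 had a negative difference at an edgeR adjusted p under 0.05 (ANKRD1, CCN1 and CCN2) and 19 did not pass, IGFBP3 among them (-1.21, edgeR adjusted p = 0.57). ANKRD1 under DMSO was at 1993, 1576 and 1780 CPM in SPARK-OFF cells and at 800, 740 and 878 CPM in control cells, a log2 fold change of 1.15, against 0.04 under rapamycin (difference -1.10, SE 0.16, edgeR adjusted p = 0.00581). CCN1 was at 1378, 1445 and 1352 CPM against 477, 476 and 469 CPM under DMSO (log2 fold change 1.55, difference -0.65, SE 0.11, edgeR adjusted p = 0.017). CCN2 (1.38 under DMSO, difference -0.64, SE 0.12, edgeR adjusted p = 0.0348) and THBS1 (1.87 under DMSO, difference -0.97, SE 0.17, edgeR adjusted p = 0.0237) had the same order. The control cells with rapamycin and with DMSO had means of 720 and 806 CPM for ANKRD1, 473 and 474 CPM for CCN1, 541 and 564 CPM for CCN2 and 17.9 and 17.8 CPM for THBS1. MAML2 (difference 0.24, edgeR adjusted p = 0.744) and YAP1 (0.22, edgeR adjusted p = 0.782) had positive differences that did not pass. KRT4, an epithelial keratin, had a log2 fold change of 1.35 under rapamycin and 2.60 under DMSO (difference -1.26, SE 0.21, edgeR adjusted p = 0.0237), ACTBL2, an actin-like gene similar in sequence to ACTB, had 1.36 and 2.86 (difference -1.50, edgeR adjusted p = 0.0665), and CYP26A1, which breaks down retinoic acid, had -0.35 and 1.14 (difference -1.50, edgeR adjusted p = 0.0646).

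**Figure D4:**
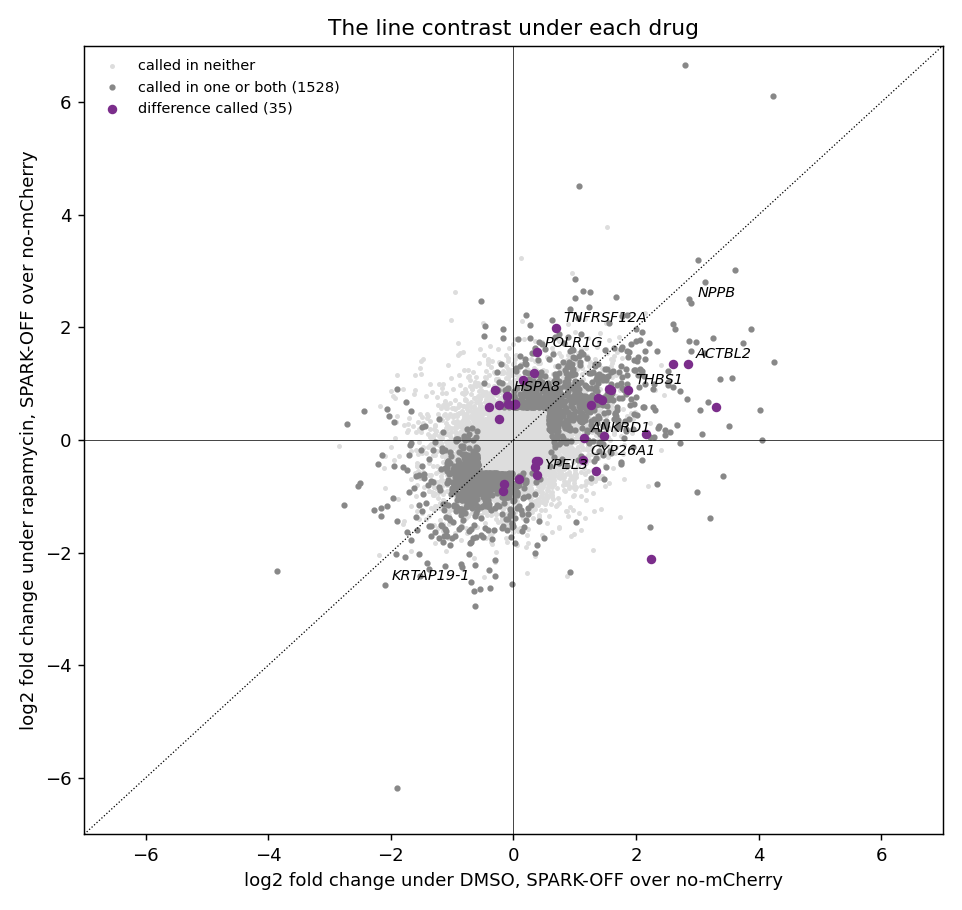
Log2 fold change of SPARK-OFF over no-mCherry cells under DMSO (horizontal axis) and under rapamycin (vertical axis) for 18391 genes, with the dotted line marking equal values and the 35 genes with a called difference in purple. ANKRD1 lies at 1.15 and 0.04, and TNFRSF12A lies at 0.70 and 1.99.

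A further set differed between the lines under rapamycin and little under DMSO, with the low value in control cells given rapamycin. HSPA8, the constitutive HSC70 chaperone, was at 2465, 2677 and 2847 CPM in SPARK-OFF cells with rapamycin and at 3235, 2547 and 2926 CPM with DMSO. In control cells HSPA8 was at 1348, 1655 and 1662 CPM with rapamycin and at 2924, 2745 and 3713 CPM with DMSO (difference 0.88, SE 0.17, edgeR adjusted p = 0.0348). The control libraries with rapamycin lay below every other library of the 4 groups. SLC7A5 followed the same order, with means of 163 and 165 CPM in SPARK-OFF cells and of 71.6 and 130 CPM in control cells with rapamycin and with DMSO (difference 0.85, SE 0.17, edgeR adjusted p = 0.048). NOP16 had means of 38.4 and 39.6 CPM in SPARK-OFF cells and of 18.3 and 35.3 CPM in control cells (difference 0.91, SE 0.16, edgeR adjusted p = 0.0285). POLR1G, a subunit of RNA polymerase I, was at 8.82, 9.02 and 9.27 CPM in SPARK-OFF and at 3.06, 3.34 and 2.79 CPM in control cells with rapamycin, and its means with DMSO were 7.47 and 5.71 CPM (difference 1.17, SE 0.22, edgeR adjusted p = 0.0348). For TNFRSF12A the value that stood apart was the high one in SPARK-OFF cells with rapamycin. Its means were 62.7 and 29.6 CPM there with rapamycin and with DMSO, and 15.8 and 18.3 CPM in control cells (difference 1.30, SE 0.18, edgeR adjusted p = 0.00431). LBH (difference 1.18), SLC7A11 (0.98), the cystine transporter, and GFOD1 (0.87) completed the 8 largest positive differences among protein-coding genes at 5 CPM or more.

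On the negative side, PBXIP1 was at 35.6, 31.6 and 34.1 CPM in SPARK-OFF and at 45.7, 47.6 and 47.5 CPM in control cells with rapamycin, while its means with DMSO were 33.5 and 26.4 CPM (difference -0.82, SE 0.13, edgeR adjusted p = 0.016). YPEL3 was at 35.1, 27.7 and 31.3 CPM against 53.3, 46.9 and 43.8 CPM with rapamycin, and its means with DMSO were 38.9 and 29.7 CPM (difference -1.0, SE 0.18, edgeR adjusted p = 0.0241). For both genes the control cells with rapamycin were the highest of the 4 groups. MXD3, a MAX-binding repressor, had a difference of -0.78 (edgeR adjusted p = 0.0646).

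**Figure D5:**
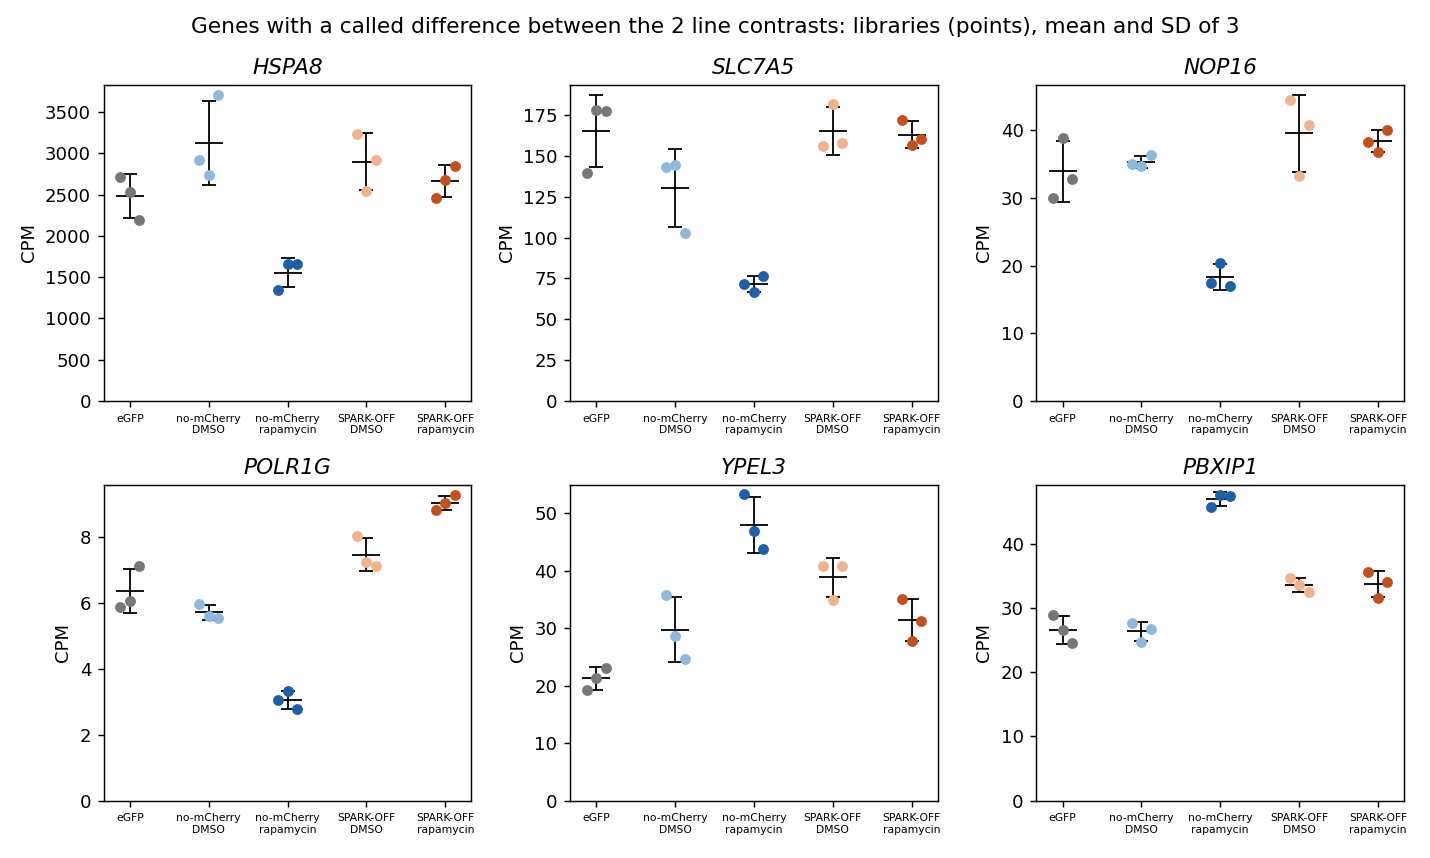
CPM of HSPA8, SLC7A5, NOP16, POLR1G, YPEL3 and PBXIP1 in the 5 groups on axes from 0, with 1 point per library and the mean and SD of 3 libraries. No-mCherry cells with rapamycin are the lowest of the 5 groups for the first 4 genes (HSPA8 1555 ± 180 CPM) and the highest for YPEL3 and PBXIP1 (47.0 ± 1.08 CPM).

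Over the lists, the median difference between the contrasts was 0.35 for ribosome biogenesis, 0.23 for ATF4 and amino acid response, 0.22 for heat shock and chaperones, -0.22 for core YAP and TAZ targets, -0.26 for HOX genes and -0.16 for ribosomal proteins, beside 0.02 for all genes tested. Few members passed singly for this difference at an edgeR adjusted p under 0.05. In the same order, they were 1 of 44, 1 of 41, 1 of 35, 3 of 22, 0 of 36 and 0 of 76. Without control replicate 3 with DMSO, which leaned with GC, the medians were -0.10 for core YAP and TAZ targets, -0.13 for HOX genes and -0.26 for ribosomal proteins, against 0.34, 0.18 and 0.20 for the first 3 lists. The summed level of the ribosome biogenesis list was 9500 to 9860 CPM in SPARK-OFF cells and 7180 to 8160 CPM in control cells with rapamycin, and 10000 to 10700 and 9620 to 10900 CPM with DMSO. Chaperones had the same order, at 16900 to 18400 and 12600 to 14600 CPM with rapamycin and at 17700 to 20100 and 16900 to 21400 CPM with DMSO. Core YAP and TAZ targets summed to 3560 to 3590 and 2400 to 2470 CPM with rapamycin and to 5560 to 5890 and 2500 to 2550 CPM with DMSO. Under DMSO, the median log2 fold change between the lines was 0.55 for interferon-stimulated genes (8 higher), 0.78 for histones (10 higher) and -0.27 for p53 targets (8 lower and 1 higher).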

How the data were processed

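The authors deposited 1 table of raw counts for each gene and library. The study's methods name fastp, STAR with default settings on hg38 and edgeR, and the submitters' notes add FastQC and HTSeq. Their versions, the annotation and the strand setting of the counting were not found in the sources used here. Of 61533 identifiers, 61369 matched GENCODE v44, which gave names and hg38 coordinates.

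The quasi-likelihood test of edgeR 4.0.16 (R 4.3.3) was run once over 15 libraries after filterByExpr and TMM (factors 0.901 to 1.05), with Benjamini-Hochberg adjustment over 18391 genes, and was tested on simulated counts. Each group had 3 libraries, and a common biological coefficient of variation of 0.111 was estimated. DEGs used the study's thresholds, and list members an adjusted p under 0.05. The samples, the 33 lists and the tests were chosen with earlier results of these data known. Named genes were the fusion genes, known targets and the 12 largest called changes per direction (protein-coding, at least 5 CPM, libraries not overlapping). The 8 largest called differences per direction (protein-coding, at least 5 CPM in the highest of the 4 groups) were named too. In each list, up to 4 members with the largest changes and 2 with the highest levels were also named. ARHGEF17, FOXF2, TEAD2, NRARP, FKBP1A and MTOR were added after their values were seen. Alternatives were RLE normalization, no filter, DESeq2 1.42.0, a replicate block, the 6 libraries alone, each replicate left out and, chosen after seeing the data, a GC trend removed.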

Additional observations from a re-analysis of the deposited data

Results flagged for a closer look

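The difference between SPARK-OFF and no-mCherry cells under rapamycin was itself different from that under DMSO for 35 genes, by the interaction term of the edgeR fit. Values are given for 18 of them. These are the known targets that were called and the 8 largest in each direction among protein-coding genes at 5 CPM or more. Without these limits the largest negative difference was 4.35 in size. On the log2 scale, the rapamycin value minus the DMSO value was -1.105 for ANKRD1, -0.6467 for CCN1, -0.6404 for CCN2 and -0.9719 for THBS1, all targets of YAP. It was also negative for ACTBL2 (-1.498), CYP26A1 (-1.495), KRT4 (-1.258), YPEL3 (-1.004), PBXIP1 (-0.8237) and MXD3 (-0.7836). It was positive for TNFRSF12A (1.296), LBH (1.182), POLR1G (1.168), SLC7A11 (0.9811), NOP16 (0.905), HSPA8 (0.8838), GFOD1 (0.8672) and SLC7A5 (0.8454). MAML2 and YAP1 also differed between the lines under both drugs, and their part in these values was not tested.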

How the results depend on the processing

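The counts of genes higher and lower in SPARK-OFF cells stayed within 1.5 times of 446 and 581 under rapamycin, and of 490 and 340 under DMSO, in every alternative run. With 1 library left out they ranged from 386 to 435 and from 520 to 564 under rapamycin, and from 370 to 467 and from 245 to 441 under DMSO. Of 236 named genes that passed under rapamycin, 185 passed in every setting, 51 did not in at least 1, and 0 changed direction.

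The difference between the contrasts (13 positive, 22 negative) depended more on the processing. It gave 31 and 37 with no filter on low counts, 36 and 45 with DESeq2, 31 and 30 with the GC trend removed, and from 1 to 54 and from 7 to 38 with 1 library left out. The cause was not tested. With the replicate block it gave 7 and 17, and the block gave 436 and 559 under rapamycin and 466 and 317 under DMSO. The labels do not say whether equal replicate numbers pair libraries across groups, so pairing is unknown. Under rapamycin the deviations of same-numbered libraries from their group had correlations across genes of 0.375, 0.003 and 0.108. Replicate 1 of SPARK-OFF cells correlated best with its own number there, and replicates 2 and 3 did not. With 3 libraries per group, genes with low counts such as NT5E and IGFBP3 had SE of 0.27 and 0.33 under rapamycin. Values larger than the SE also failed to pass in such genes. The difference between the contrasts was -1.21 for IGFBP3 (SE 0.47, edgeR adjusted p = 0.57).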

Other observations

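By position, the median log2 fold change under rapamycin of a chromosome lay between -0.042 (chromosome 19) and 0.041 (chromosome 18). Of 156 windows of 20 Mb with at least 20 tested genes, 8 had a median above 0.1 in size. The lowest was -0.251 on chromosome 5 between 180 and 200 Mb (22 genes, -0.088 under DMSO), and the highest was 0.134 on chromosome 6 between 140 and 160 Mb (99 genes).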
